A study of Mus musculus with 15 samples.

Results

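Transcript levels were examined for 9 genes whose proteins build the presynaptic active zone, hold or recycle synaptic vesicles, or fuse them with the plasma membrane: Bsn, Pclo, Rims1, Syn1, Syn2, Dnm1, Snap25, Syt1 and Vamp2. The genes were taken by name, each symbol matched 1 Ensembl identifier, and they were 9 of the 57180 gene identifiers in each count table. All 9 passed the filter on low counts in both experiments. RNA-seq was performed on polyA RNA from the brainstem of C57BL/6 mice in 15 libraries, 3 in each of 5 groups. The AMPK experiment compared AMPK+/+ mice, called AMPK WT, with mice labelled AMPK-/-, which the study names as knockouts of the AMPKα2 catalytic subunit and which are called AMPKα2-/- here as a label. The LMX1B experiment compared prenatal LMX1B+/+ mice, called Lmx1b WT, with mice labelled LMX1B+/- and LMX1B-/-, called Lmx1b+/- and Lmx1b-/-. AMPK WT mice were littermates of the knockouts, and the LMX1B tissue was embryonic. Loss of both Lmx1b copies is described as lethal to the embryo. The series concerns neonatal mice, and the methods name mice of the first postnatal days without tying them to libraries, so the stage of the AMPK libraries and the embryonic day of the LMX1B libraries remain unstated. The number of animals behind each library, and whether libraries of a group came from separate animals, are not given in the sources used here, so p-values measure the spread between these libraries.

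A synapse releases transmitter when vesicles docked at the active zone fuse with the plasma membrane. Bassoon (Bsn) and Piccolo (Pclo) are giant scaffold proteins that organise the active zone, and RIM1 (Rims1) tethers vesicles and calcium channels there. Synapsins (Syn1, Syn2) coat vesicles and hold them in a reserve cluster. SNAP-25 (Snap25) and synaptobrevin-2 (Vamp2) are SNARE proteins that zip the vesicle onto the plasma membrane, and synaptotagmin-1 (Syt1) is the calcium sensor that triggers this fusion. Dynamin-1 (Dnm1) is the GTPase that pinches used vesicles off the membrane for recycling. Neurons of the brainstem that set the breathing rhythm signal through such synapses, which are formed and strengthened around birth. In bulk tissue, fewer neurons and less of a transcript per neuron cannot be told apart.

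Library depth and the targeted genes were examined first. AMPK WT 2 and AMPKα2-/- 3 held 291212 and 335986 counts, the other AMPK libraries 14975095 to 17384171 counts and the LMX1B libraries 28833130 to 37441679 counts. Levels are given as CPM, the counts of a gene per 1000000 counts, on totals scaled by TMM, a method that corrects for differences in library composition, within each experiment. Prkaa2, which encodes AMPKα2, measured 21.9, 26.6 and 29.7 CPM in the AMPK WT libraries. The libraries labelled AMPKα2-/- had 25.4, 22.3 and 12.1 CPM of Prkaa2, so the groups overlapped and the transcript did not separate the genotypes. Lmx1b levels were 22.5, 16.0 and 9.73 CPM in Lmx1b WT and 1.45, 1.13 and 0.848 CPM in Lmx1b-/-. Libraries labelled Lmx1b+/- had 30.5, 11.9 and 14.25 CPM of Lmx1b. Lmx1b therefore set the null libraries apart and did not set the heterozygous libraries below WT. Mitochondrial transcripts took 10.4 to 13.9% of counts in AMPK WT against 20.05 to 21.7% in the libraries labelled AMPKα2-/-, and 5.57 to 6.74% in Lmx1b WT against 9.58 to 14.7% in Lmx1b+/- and 7.23 to 7.98% in Lmx1b-/-. Their part in the results below was not tested. The summed level of 12 neuron markers was 4505 to 5921 CPM in AMPK WT, 5343 to 6088 CPM in AMPKα2-/-, 7196 to 7954 CPM in Lmx1b WT, 7314 to 8240.0 CPM in Lmx1b+/- and 7654 to 8279 CPM in Lmx1b-/-, and none of the 12 markers was at 0.

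The sequence upstream of the start site is shown for 3 members that fell in both experiments (Bsn, Syn1, Dnm1) and for Syt1, which moved the opposite way in the AMPK experiment. Promoter windows of 250 bases before the annotated start were found in RefSeq (GRCm38.p6, an older build than the one the count files name) for 7 of the 9 genes, with 9 start sites in all. No promoter window was used for Snap25 or Vamp2. The 150 bases nearest the start are printed, or all 250 for Syn1, each 5′ to 3′ on the strand of the gene. Capitals mark matches to the searched motifs.
Bsn, chr9:108190384-108190533, minus strand: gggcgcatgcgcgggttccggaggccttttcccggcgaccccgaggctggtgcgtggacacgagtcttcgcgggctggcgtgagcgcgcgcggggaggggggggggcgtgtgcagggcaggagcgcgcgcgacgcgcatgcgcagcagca
Syn1, chrX:20920919-20921168, minus strand: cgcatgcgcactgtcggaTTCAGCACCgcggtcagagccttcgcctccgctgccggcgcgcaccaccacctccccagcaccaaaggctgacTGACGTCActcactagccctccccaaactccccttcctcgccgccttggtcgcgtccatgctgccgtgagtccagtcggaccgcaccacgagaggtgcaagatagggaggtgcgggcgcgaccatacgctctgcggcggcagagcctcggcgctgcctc
Dnm1, chr2:32353330-32353479, minus strand: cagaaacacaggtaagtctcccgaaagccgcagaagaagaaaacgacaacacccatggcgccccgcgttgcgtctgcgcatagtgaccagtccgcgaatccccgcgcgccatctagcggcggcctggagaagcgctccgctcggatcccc
Syt1, chr10:109009112-109009261, minus strand: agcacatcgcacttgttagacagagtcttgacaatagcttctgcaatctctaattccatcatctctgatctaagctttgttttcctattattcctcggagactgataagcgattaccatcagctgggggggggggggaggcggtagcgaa
These windows differed in base composition. The Bsn window had 71.6% GC and 32 CpG dinucleotides, more CpG than 95.4% of the 32851 windows of the same length, and the Syn1 window had 68% GC and 27 CpG. The Dnm1 window had 55.6% GC and 20 CpG, and the printed Syt1 window had 42.8% GC and 5 CpG, while the window of the second Syt1 start site had 56.4% GC and 8 CpG, against medians of 52.4% GC and 6 CpG over all windows. Windows not printed had 61.2% GC and 25 CpG for Pclo and 68% GC and 19 CpG for Rims1. The Syn2 start sites had 61.2% GC and 16 CpG, and 50.4% GC and 5 CpG. Motifs were searched on both strands and did not overlap one another. TAATTA, a core recognised by many homeodomain proteins, was in 4.84% of all windows and in none of the 9 member windows. TGACGTCA, the cAMP response element, was in 1.55% of all windows, and TTCAGCACC, the left part of the RE1 element bound by the neuronal gene repressor REST, was in 0.301%. Syn1 was the only member with a match, and its window held both of these. GGACAGCGC, the right part of RE1, was in 0.304% of all windows and in no member window.

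Members were compared with one another on the deposited RPKM scale, which divides by gene length. In AMPK WT the order of levels was Snap25, Dnm1, Syn1, Vamp2, Syt1, Syn2, Rims1, Bsn and Pclo. Snap25 stood first at 217 ± 20.9 RPKM (SD, n = 3) and Dnm1 followed at 106 ± 29.9 RPKM. The scaffolds were the lowest, with Rims1 at 9.43 ± 1.33, Bsn at 8.67 ± 3.73 and Pclo at 8.10 ± 2.85 RPKM. The library ranges of Dnm1 and Syn1, of Syt1 and Syn2, of Rims1 and Bsn and of Bsn and Pclo overlapped, while the other neighbours in this order did not. In the libraries labelled AMPKα2-/-, Bsn was last at 2.93 ± 0.656 RPKM, below Pclo at 5.14 ± 0.561 RPKM with no overlap, and Dnm1 stood at 43.2 ± 0.748 RPKM, level with Vamp2 at 44.0 ± 2.92 RPKM.

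In the prenatal libraries the order was different. Vamp2 was first in Lmx1b WT at 88.5 ± 10.9 RPKM (SD, n = 3), followed by Syn1 at 72.7 ± 9.86, Dnm1 at 50.7 ± 7.64, Syt1 at 40.0 ± 6.82 and Snap25 at 35.9 ± 4.96 RPKM. The ranges of Vamp2 and Syn1, of Dnm1 and Syt1 and of Syt1 and Snap25 overlapped. Syn2 stood alone at 18.3 ± 1.64 RPKM above the scaffolds, which were at 12.4 ± 1.04 for Bsn, 11.4 ± 1.81 for Rims1 and 10.1 ± 1.75 RPKM for Pclo with overlapping ranges. In Lmx1b+/- the scaffolds were again last, at 5.86 ± 0.201 RPKM for Rims1, 5.43 ± 0.381 for Pclo and 5.18 ± 0.745 for Bsn. The order in Lmx1b-/- followed that of WT at the top (Vamp2, Syn1, Dnm1), with Snap25 and Syt1 overlapping below it.

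The WT groups of the 2 experiments are set side by side as a description, because stage and experiment cannot be told apart and the tables were normalised separately. The sample labels give no sequencing run. The mean RPKM of Snap25 in AMPK WT was 6.04 times that in Lmx1b WT, and that of Dnm1 was 2.10 times as high. Ratios were 1.33 for Syn2, 1.10 for Syn1, 0.83 for Rims1, 0.81 for Pclo, 0.70 for Bsn, 0.68 for Syt1 and 0.66 for Vamp2. Libraries did not overlap for Snap25, Dnm1, Syn2, Syt1 and Vamp2, and they overlapped for Bsn, Pclo, Rims1 and Syn1. The summed level of 10 oligodendrocyte markers was 13972 to 24026 CPM in AMPK WT and 402 to 469 CPM in Lmx1b WT.

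**Figure D1:**
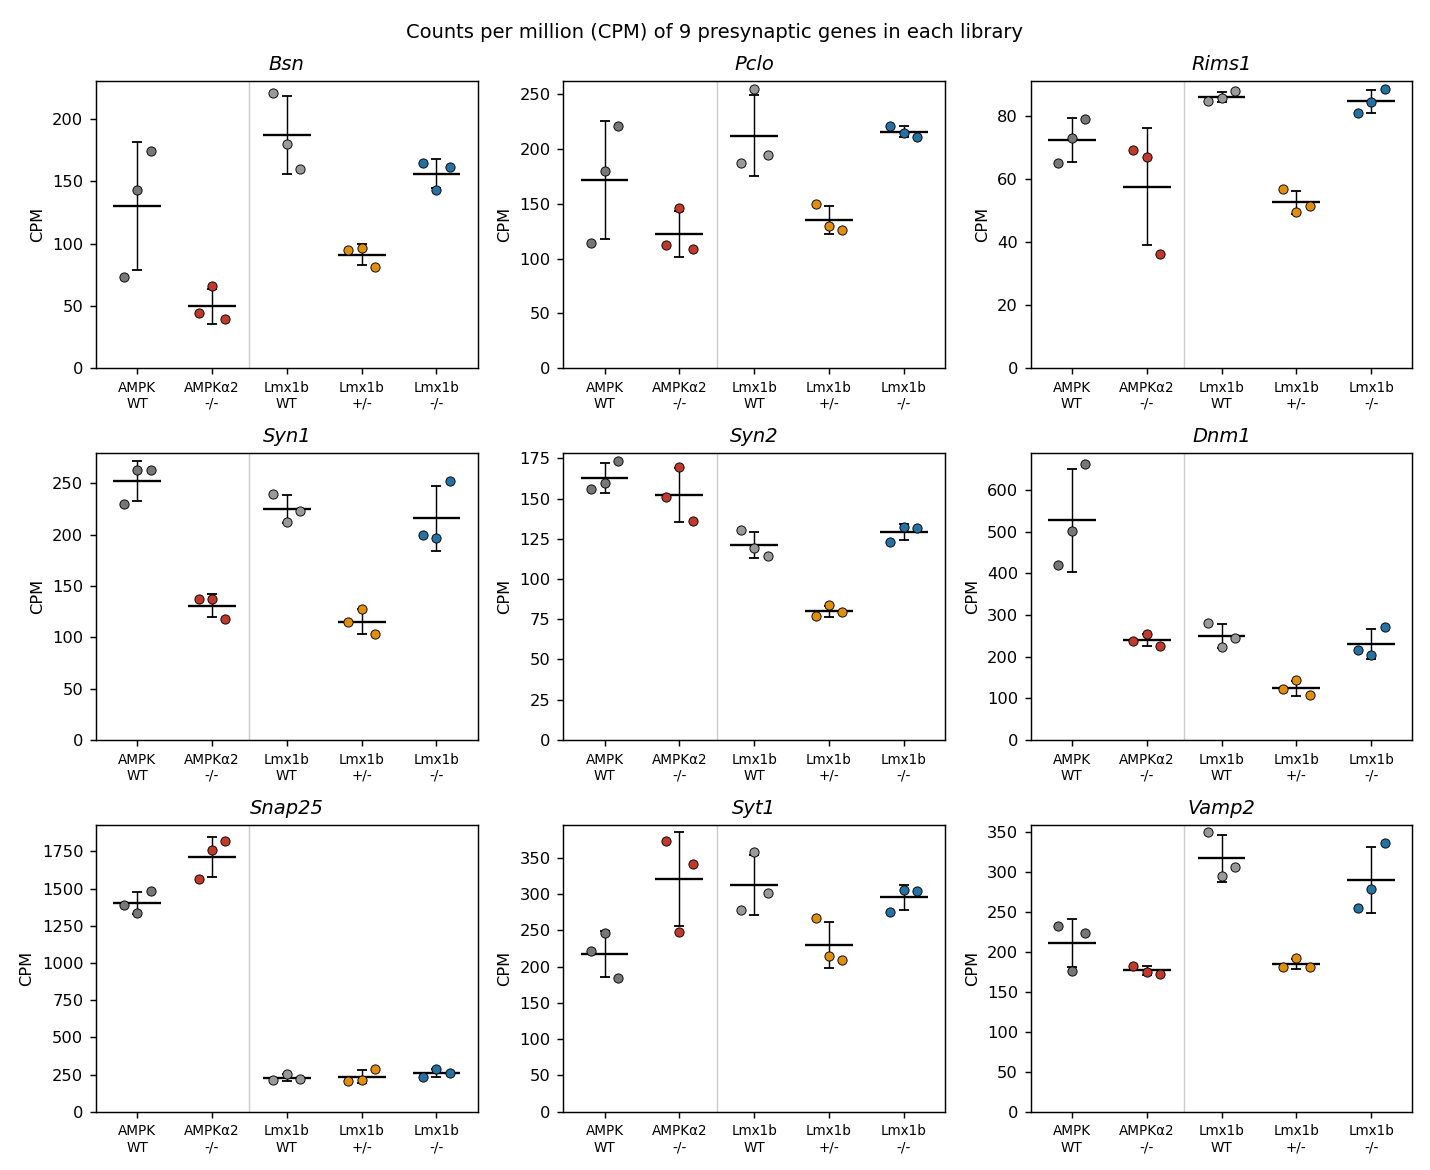
CPM (vertical axes, linear, from 0) of the 9 genes in each of the 15 libraries, by group, with the group mean as a bar and the SD as whiskers. Snap25 lies between 1334 and 1819 CPM in the AMPK experiment and between 204 and 285 CPM in the LMX1B experiment, and the 3 Lmx1b+/- libraries lie below all Lmx1b WT libraries for every gene except Snap25.

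The AMPK comparison asked which transcripts differ between the libraries labelled AMPKα2-/- and AMPK WT, labels that the Prkaa2 transcript did not separate. Bsn, Syn1 and Dnm1 fell and Syt1 rose in the libraries labelled AMPKα2-/-, while Pclo, Rims1, Syn2, Snap25 and Vamp2 did not pass the test. In edgeR's quasi-likelihood test with Benjamini-Hochberg adjustment over all genes, 4 of 9 members were called at an adjusted p under 0.05, where 8.94% of 17397 genes were called. In the lower direction 3 members were called, against 5.17% of all genes, and in the higher direction 1, against 3.77%. All 9 members were in the top quartile of mean level, where 9.13% of genes were called lower and 8.30% higher. In the top quartile of transcript GC content, which held Bsn, Syn1, Dnm1 and Vamp2, 13.8% were called lower. In the top quartile of exonic length, which held Bsn, Pclo, Rims1, Syn2, Snap25 and Syt1, 11.2% were called lower. The median log2 fold change was -0.28 over the 9 members and -0.01 over all genes. CPM of the 2 groups did not overlap for 5 members (the 4 called and Snap25), against 26.6% of all genes. The 4 calls depended on how the libraries were handled. None was made with limma on log2 RPKM, none with the 4 libraries of over 1000000 counts (where 6 genes were called in all), and none after trends with gene length and GC content were removed, and leaving out AMPK WT 3 left 2 calls, Syn1 and Dnm1.

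The comparison of Lmx1b+/- with WT asked which transcripts differ between these labels in the prenatal brainstem. Since the Lmx1b transcript was not lower in the libraries labelled Lmx1b+/-, it cannot tell whether a change depends on Lmx1b dose. All members but Snap25 fell in the libraries labelled Lmx1b+/-, by 1.36-fold (Syt1) to 2.06-fold (Bsn). Of the 9 members 8 were called, where 36.7% of 21729 genes were called in either direction and 17.3% were called lower. All 9 members were in the top quartile of mean level, where 31.9% of genes were called lower. Bsn, Pclo, Rims1, Syn2, Snap25 and Syt1 were in the top quartile of exonic length, where 38.3% were called lower. The median log2 fold change was -0.71 over the members and -0.03 over all genes. CPM did not overlap for the same 8 members, against 45.3% of all genes. Pclo and Syt1 were not called once the trend with gene length was removed, which left 6 calls. With length and GC trends removed Syn1 had the largest fall (log2 -0.74) and Bsn stood at -0.42. Red blood cell markers moved with this comparison: all 7 erythroid markers rose, and their summed level was 3547 to 7513 CPM in Lmx1b+/- against 509 to 1248 CPM in WT and 1060 to 2380 CPM in Lmx1b-/-. Their part in the result was not tested.

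Members did not separate Lmx1b-/- from WT. No member was called by edgeR's quasi-likelihood test or by DESeq2. Of all genes 0.0184%, 4 of 21729, were called by edgeR and 34 by DESeq2. No member had an unadjusted p under 0.05 in edgeR's test, against 1757 of all genes. Log2 fold changes lay between -0.26 for Bsn and 0.18 for Snap25, with a median of -0.06 over the members and 0.01 over all genes. The 95% intervals bounded the change at -0.53 to 0.01 for Bsn, at -0.32 to 0.20 for Syn1 and at -0.12 to 0.47 for Snap25. CPM overlapped for each of the 9 members, where 18.0% of all genes did not overlap.

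Lmx1b-/- and Lmx1b+/- were then compared directly. Bsn, Pclo, Rims1, Syn1, Syn2, Dnm1 and Vamp2 were higher in Lmx1b-/-, by 1.57-fold (Vamp2) to 1.87-fold (Syn1), and Snap25 and Syt1 did not pass the test. With the length trend removed Pclo was not called (adjusted p of 0.0521, edgeR), which left 6. As first tested these were 7 of 9 members, where 25.5% of all genes were called and 11.5% were called higher. In the top quartile of mean level, which held all 9 members, 24.6% of genes were called higher. CPM did not overlap for 8 members, Syt1 included, against 42.4% of all genes. The median log2 fold change was 0.69 over the members and 0.02 over all genes. This comparison shares the Lmx1b+/- libraries with the first LMX1B comparison. Beside it, 7 of 7 erythroid, 4 of 8 tested muscle, 3 of 9 progenitor and 1 of 10 hindbrain markers were lower in Lmx1b-/-. In the same comparison 9 of 10 oligodendrocyte, 5 of 8 astrocyte, 5 of 6 tested telencephalon, 3 of 12 neuron and 2 of 7 microglia markers were higher. Of all genes 14% were called lower and 11.5% higher. The part of these markers in the result was not tested.

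The knockout effects of the 2 experiments were compared in a fit of all 15 libraries. No member was called for a difference between the Lmx1b-/- effect and the AMPKα2-/- effect at an adjusted p under 0.05, where 0.305% of 22327 genes were called. An unadjusted p under 0.05 was found for 4 members and for 3389 of the 22327 genes. The difference was 0.81 ± 0.19 (log2, SE) for Syn1 with an adjusted p of 0.0685 and 1.00 ± 0.24 for Dnm1 with an adjusted p of 0.0701 in edgeR's quasi-likelihood test. It was 0.95 ± 0.33 for Bsn and -0.68 ± 0.23 for Syt1, with adjusted p of 0.187 and 0.168.

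**Figure D2:**
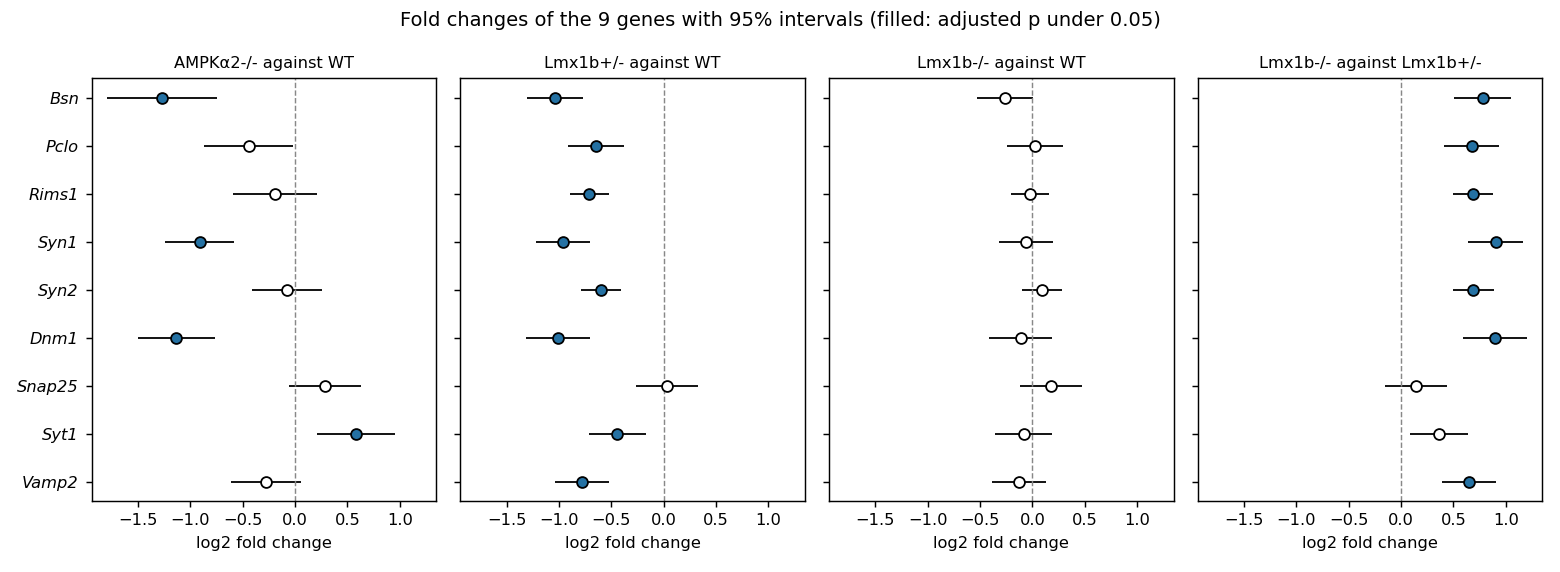
Log2 fold change (horizontal axes) of each of the 9 genes in 4 comparisons, with 95% intervals from edgeR's quasi-likelihood fit and filled circles for an adjusted p under 0.05. Of the 9 circles 4 are filled for AMPKα2-/- against WT, 8 for Lmx1b+/- against WT, 0 for Lmx1b-/- against WT and 7 for Lmx1b-/- against Lmx1b+/-.

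Of the active zone scaffolds, Bsn changed in both experiments. Bsn (ENSMUSG00000032589, 15938 exonic bases, 58.8% GC) was at 73.6, 143 and 174 CPM in AMPK WT, against 44.2, 65.9 and 39.3 CPM in AMPKα2-/-. The groups did not overlap, but AMPK WT 1 lay nearer to the highest AMPKα2-/- library than to the other WT libraries. The log2 fold change was -1.27 ± 0.25 (SE), a 2.42-fold fall with an adjusted p of 0.00369 in edgeR's quasi-likelihood test. Without AMPK WT 3, the WT library with the highest Bsn, Bsn was not called. In the LMX1B experiment Bsn was at 221, 180.2 and 160.0 CPM in WT, at 95.1, 96.7 and 81.3 CPM in Lmx1b+/- and at 164, 143 and 161 CPM in Lmx1b-/-. Every Lmx1b+/- library was below every library of the other groups, with a log2 fold change against WT of -1.04 ± 0.13 and an adjusted p of 5.34e-05 in edgeR's quasi-likelihood test. With length and GC trends removed this log2 fold change was -0.42, and Bsn was still called. The null libraries overlapped the lowest WT library, at -0.26 ± 0.12 against WT (adjusted p of 0.627, edgeR).

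Pclo, the largest gene of the set (ENSMUSG00000061601, 22457 exonic bases, 46.6% GC), moved less. It was at 115, 179.7 and 221 CPM in AMPK WT and at 113, 146 and 109 CPM in AMPKα2-/-, so AMPK WT 1 fell among the knockout libraries. The log2 fold change of -0.44 ± 0.21 did not pass the test (adjusted p of 0.187, edgeR). Prenatal Pclo was at 188, 254 and 195 CPM in WT, at 150.2, 129.8 and 126 CPM in Lmx1b+/- and at 221, 215 and 211 CPM in Lmx1b-/-. It fell 1.57-fold in Lmx1b+/-, with a log2 fold change of -0.65 ± 0.12 and an adjusted p of 0.00125 in edgeR's quasi-likelihood test. After the length trend was removed the log2 fold change was -0.22 and the adjusted p 0.105.

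Rims1 (ENSMUSG00000041670, 8103 exonic bases, 48.2% GC) varied little in CPM among WT libraries. It was at 65.2, 73.2 and 79.3 CPM in AMPK WT and at 69.5, 67.2 and 36.3 CPM in AMPKα2-/-, where the low value came from the library of 335986 counts and rested on 12 counts. The log2 fold change of -0.19 ± 0.19 did not pass the test (adjusted p of 0.582, edgeR). In the LMX1B experiment Rims1 was at 84.8, 85.9 and 88.1 CPM in WT, at 56.9, 49.7 and 51.5 CPM in Lmx1b+/- and at 81.2, 84.7 and 88.7 CPM in Lmx1b-/-. The fall in Lmx1b+/- was 1.64-fold (log2 -0.71 ± 0.09, adjusted p of 5.44e-05, edgeR), and the null libraries spanned the WT values.

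The synapsins parted in the AMPK experiment and moved together in the LMX1B experiment. Syn1 (ENSMUSG00000037217, 3299 exonic bases, 57.7% GC) was at 229.6, 263 and 263 CPM in AMPK WT and at 137, 137 and 118 CPM in AMPKα2-/-. The groups were well apart, with a 1.88-fold fall (log2 -0.91 ± 0.16, adjusted p of 0.00167, edgeR). Syn2 (ENSMUSG00000009394, 7031 exonic bases, 51.6% GC) was at 156, 159.7 and 174 CPM in AMPK WT and at 151, 169.6 and 136 CPM in AMPKα2-/-. These groups overlapped, and the log2 fold change was -0.08 ± 0.16 with a 95% interval of -0.41 to 0.25. No test of the difference between the 2 genes was made.

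Prenatal Syn1 was at 240.0, 212 and 223 CPM in WT, at 115, 128 and 103 CPM in Lmx1b+/- and at 199, 196 and 252 CPM in Lmx1b-/-. It fell 1.95-fold in Lmx1b+/- (log2 -0.96 ± 0.12, adjusted p of 6.80e-05, edgeR), and Lmx1b-/- 3 was the highest library of the experiment. Syn2 was at 130.2, 119 and 114 CPM in WT, at 77.0, 83.7 and 79.4 CPM in Lmx1b+/- and at 123, 133 and 132 CPM in Lmx1b-/-. It fell 1.52-fold in Lmx1b+/- (log2 -0.60 ± 0.09, adjusted p of 0.000221, edgeR), and its 3 Lmx1b+/- libraries had an SD of 3.38 CPM, against 12.1 CPM for Syn1.

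Dnm1 (ENSMUSG00000026825, 5249 exonic bases, 58.7% GC) followed Syn1 closely. It was at 419, 502 and 662 CPM in AMPK WT and at 237, 254 and 227 CPM in AMPKα2-/-, so all knockout libraries lay far below the lowest WT library. The fall was 2.20-fold (log2 -1.14 ± 0.18, adjusted p of 0.000687, edgeR). Prenatal Dnm1 was at 280.5, 224 and 245 CPM in WT, at 121, 144 and 107 CPM in Lmx1b+/- and at 217, 204 and 271 CPM in Lmx1b-/-. It fell 2.01-fold in Lmx1b+/- (log2 -1.01 ± 0.14, adjusted p of 0.000142, edgeR) and did not differ between Lmx1b-/- and WT beyond the test's threshold (log2 -0.11 ± 0.14). Over the 9 LMX1B libraries the log2 CPM of Syn1 and Dnm1 had a Pearson r of 0.99, and an r of 0.97 once each genotype's mean was taken out. These points share library depth and composition, and the correlation is given as a description.

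Snap25 differed from the other members. This plasma membrane SNARE (ENSMUSG00000027273, 6791 exonic bases, 41.5% GC) was at 1389.6, 1334 and 1482 CPM in AMPK WT and at 1564, 1758 and 1819 CPM in AMPKα2-/-. Every knockout library was above every WT library, but the log2 fold change of 0.29 ± 0.16 did not pass the test (adjusted p of 0.296, edgeR). In the LMX1B experiment Snap25 was at 213, 256 and 218 CPM in WT, at 204, 214 and 284 CPM in Lmx1b+/- and at 230.4, 285 and 261 CPM in Lmx1b-/-. The groups overlapped, and the log2 fold change of Lmx1b+/- against WT was 0.03 ± 0.14 with a 95% interval of -0.27 to 0.33, so a fall as large as that of Bsn lay outside it. Its sign turned under 6 of the alternatives. Over the 9 LMX1B libraries Pearson r of Snap25 with the other members lay between -0.08 and 0.24.

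Syt1, the calcium sensor (ENSMUSG00000035864, 8338 exonic bases, 44.1% GC), was the only member that rose in the AMPK comparison. It was at 222, 246 and 184 CPM in AMPK WT and at 373, 248 and 341 CPM in AMPKα2-/-. The lowest knockout library was 248 CPM against 246 CPM in the highest WT library, and on the RPKM scale the groups overlapped. The rise was 1.49-fold (log2 0.58 ± 0.18, adjusted p of 0.0458, edgeR), and DESeq2 did not call it. Prenatal Syt1 was at 278, 358 and 302 CPM in WT, at 267, 214 and 209 CPM in Lmx1b+/- and at 276, 306 and 305 CPM in Lmx1b-/-. It fell 1.36-fold in Lmx1b+/- (log2 -0.44 ± 0.13, adjusted p of 0.0151, edgeR), and the call was lost without Lmx1b WT 2, Lmx1b+/- 2 or Lmx1b+/- 3. Against Lmx1b+/-, the null libraries were 1.28-fold higher with an adjusted p of 0.0526.

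Vamp2, the vesicle SNARE (ENSMUSG00000020894, 3809 exonic bases, 56.9% GC), was at 232, 176 and 223 CPM in AMPK WT and at 183, 175 and 172 CPM in AMPKα2-/-. The groups overlapped through AMPK WT 2, which rested on 53 counts, and the log2 fold change of -0.28 ± 0.16 did not pass the test (adjusted p of 0.296, edgeR). In the LMX1B experiment Vamp2 was at 350.0, 295 and 305 CPM in WT, at 181, 192 and 181 CPM in Lmx1b+/- and at 255, 278 and 336 CPM in Lmx1b-/-. It fell 1.72-fold in Lmx1b+/- (log2 -0.78 ± 0.12, adjusted p of 0.000272, edgeR). In the 2 shallow AMPK libraries the members rested on 22 to 401 counts (AMPK WT 2) and on 12 to 602 counts (AMPKα2-/- 3).

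The long active zone genes were then set against the SNARE and sensor genes. For each library the mean log2 CPM of Snap25, Syt1 and Vamp2 was subtracted from that of Bsn, Pclo and Rims1. The difference was -2.34, -1.65 and -1.44 in AMPK WT and -2.76, -2.29 and -3.14 in AMPKα2-/-, with means of -1.81 ± 0.47 and -2.73 ± 0.43 (SD, n = 3). AMPK WT 1 lay below AMPKα2-/- 2, so the groups overlapped. In the prenatal libraries it was -0.85, -0.93 and -0.96 in WT, -1.20, -1.27 and -1.45 in Lmx1b+/- and -0.82, -1.07 and -1.05 in Lmx1b-/-. All 3 Lmx1b+/- libraries lay below the other 6, and WT and Lmx1b-/- overlapped. The separation depended on the SNARE gene used. For Bsn minus Snap25 it held, at -1.81 to -1.10 in Lmx1b+/- against -0.99 to 0.05 in the other 6. For Bsn minus Vamp2 the groups overlapped, at -1.15 to -0.92 in Lmx1b+/-, -0.93 to -0.66 in WT and -1.06 to -0.63 in Lmx1b-/-. In Lmx1b+/- both sides of the difference were lower than in WT, the scaffolds at a mean of 6.43 against 7.23 and the SNARE and sensor genes at 7.74 against 8.14 (log2 CPM). In AMPKα2-/- the mean of the scaffolds was lower than in WT (6.11 against 6.83) and that of the SNARE and sensor genes higher (8.84 against 8.64). Among these genes only Bsn and Syt1 were called, and Vamp2 had a log2 fold change of -0.28, against the direction of its group mean. No p is given for this score, since its members were chosen.

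**Figure D3:**
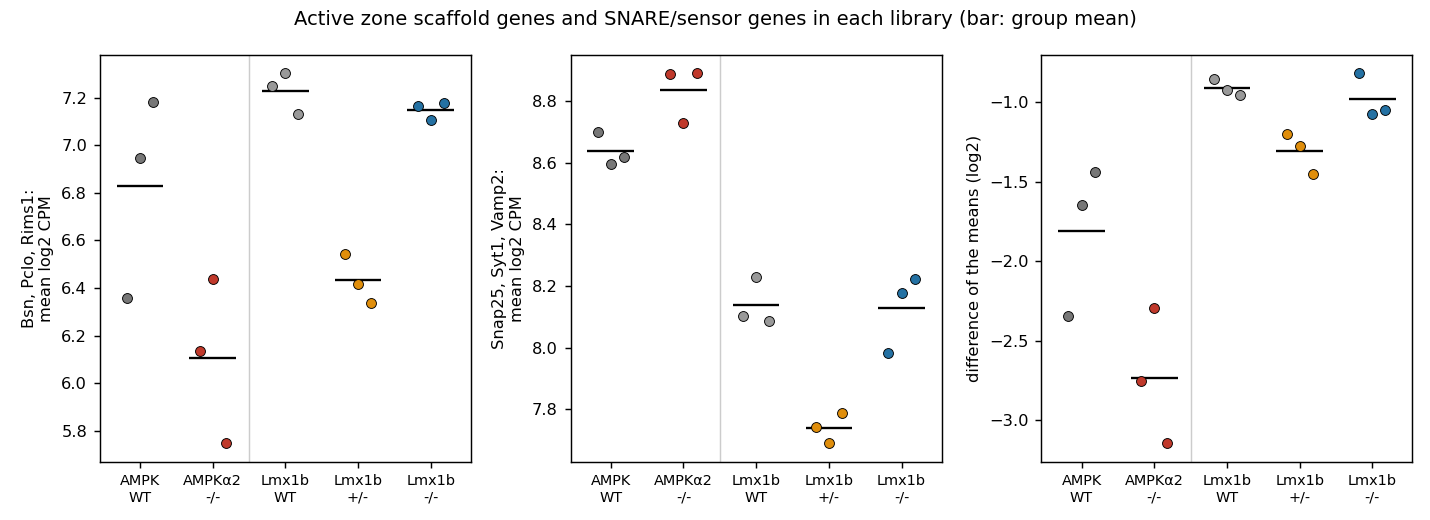
Mean log2 CPM of Bsn, Pclo and Rims1 (left), of Snap25, Syt1 and Vamp2 (middle) and their difference (right) in each of the 15 libraries, with the group mean as a bar. The difference lies between -1.45 and -1.20 in Lmx1b+/- and between -1.07 and -0.82 in the other LMX1B libraries, and it overlaps between AMPK WT and AMPKα2-/-.

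The grouping by length was not clean. Summed exons of Syt1 (8338 bases) exceeded those of Rims1 (8103 bases), and Snap25 (6791 bases) was longer than Syn1, Dnm1 and Vamp2. Length and base composition of the transcripts moved with the fold changes of all genes. By quartile of exonic length, from shortest to longest, the median log2 fold change was 0.37, 0.05, -0.11 and -0.22 for AMPKα2-/- against WT, 0.45, 0.04, -0.12 and -0.26 for Lmx1b+/- against WT and 0.10, 0.02, -0.0039 and -0.03 for Lmx1b-/- against WT. By quartile of GC content, from lowest to highest, it was 0.14, 0.06, -0.04 and -0.29 in the AMPK comparison and 0.17, 0.01, -0.10 and -0.22 in the Lmx1b+/- comparison. By quartile of mean level it stayed between -0.02 and 0.01 in the AMPK comparison and between -0.09 and 0.01 in the Lmx1b+/- comparison. The top length quartile held Bsn, Pclo, Rims1, Syn2, Snap25 and Syt1, and the top GC quartile held Bsn, Syn1, Dnm1 and Vamp2, which include each member called lower in the AMPK comparison. Snap25 and Syt1, the members with a log2 fold change above 0 in that comparison, were in the lowest GC quartile.

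Members were also tested after these trends had been removed from each library. With the length trend removed, Syn1 stood at -0.94, Dnm1 at -0.998, Bsn at -0.91 and Syt1 at 0.79 (log2) in the AMPK comparison, and the same 4 members were called. With trends of length and GC removed, they stood at -0.60, -0.58, -0.49 and 0.60, with adjusted p of 0.0602, 0.0968, 0.241 and 0.130 in edgeR's quasi-likelihood test. In the Lmx1b+/- comparison 8 members stayed called with both trends removed, with log2 fold changes from -0.74 for Syn1 to -0.32 for Pclo. The median over all 9 members was then -0.42, against -0.02 over all genes.

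**Figure D4:**
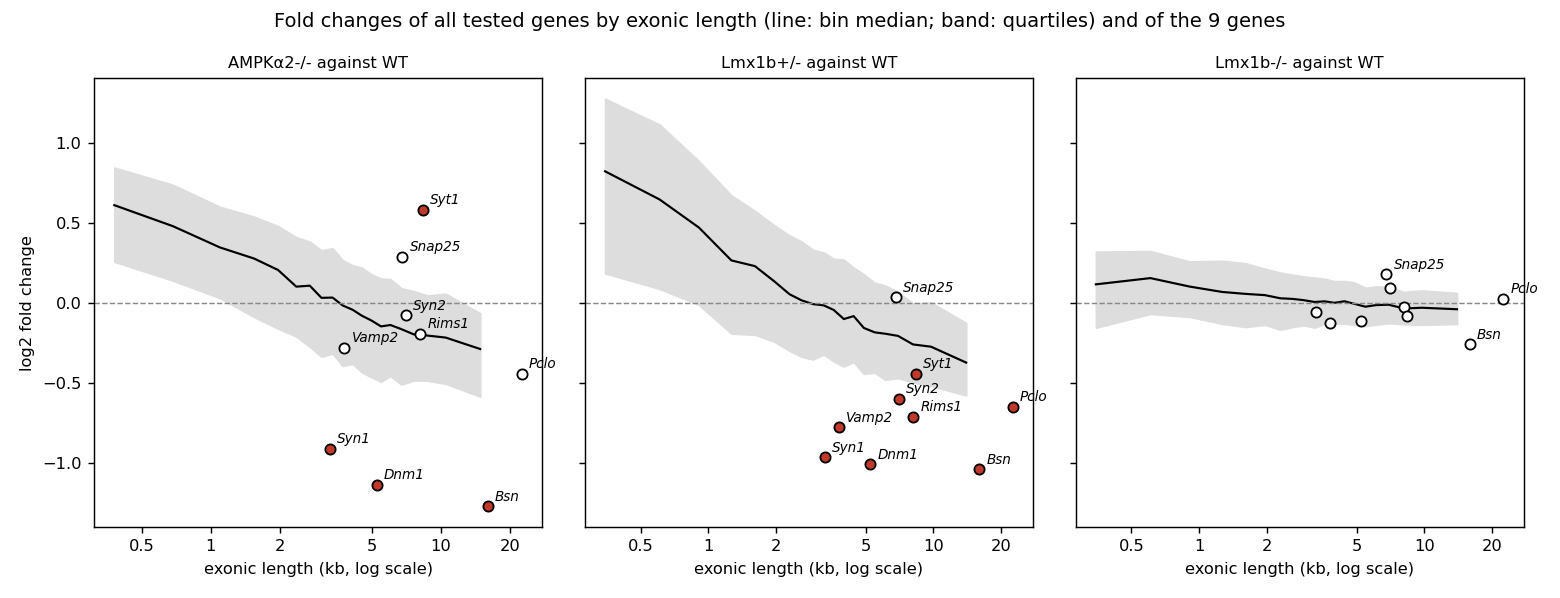
Log2 fold change (vertical axis) against exonic length in kilobases (horizontal axes, log scale) for 3 comparisons, with the median of all tested genes in bins of length as a line, their quartiles as a band and the 9 genes as circles, red where the adjusted p was under 0.05. The line falls with length for AMPKα2-/- and Lmx1b+/- against WT and is nearly flat for Lmx1b-/-. Syn1 and Dnm1 lie below the band in the first 2 panels, as do Rims1, Syn2 and Vamp2 in the second. Bsn and Pclo lie to the right of the band's end, with Bsn lower than that end in the first 2 panels. Snap25 lies on or above the line in each panel.

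A wider list of 54 presynaptic genes, the 9 members included, was examined by role. In the AMPK comparison 13 fell, 1 rose and 40 did not pass the test, where 5.17% of all genes were called lower and 3.77% higher, and of the 45 genes that are not members 10 fell and none rose. The share called lower was 9.13% in the top quartile of mean level and 11.2% in that of exonic length. Of the 15 active zone genes 5 fell, including Cacna1a (log2 -1.43 ± 0.22) and Cacna1b (-0.90 ± 0.23), which encode the presynaptic P/Q-type and N-type calcium channels, the liprin gene Ppfia3 (-1.07 ± 0.20) and the priming factor Unc13a (-0.90 ± 0.22). Of the 14 SNARE and fusion genes 3 fell, among them Syt7 (-0.92 ± 0.19), a calcium sensor of the synaptotagmin family, and Syt1 rose. Of the 15 vesicle genes Syn1, Syn3 (-1.17 ± 0.33) and the proton pump subunit Atp6v0a1 (-0.73 ± 0.17) fell, and of the 10 endocytosis genes Dnm1 and the clathrin adaptor Ap2a1 (-0.89 ± 0.17). Adjusted p of these genes lay between 0.000664 and 0.0458 in edgeR's quasi-likelihood test, and the median log2 fold change over the 54 genes was -0.25.

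In Lmx1b+/- 41 of the 54 fell and none rose, where 17.3% of all genes were called lower, and of the 45 that are not members 33 fell. The share called lower was 31.9% in the top quartile of mean level and 38.3% in that of exonic length. The 54 genes were not examined with length or GC trends removed. The count was 13 of 15 for the active zone, 12 of 14 for SNARE and fusion, 10 of 15 for vesicles and 6 of 10 for endocytosis, with medians of -0.60, -0.61, -0.60 and -0.49 (log2). Cacna1a fell most among the active zone genes (-1.18 ± 0.12, adjusted p of 1.29e-05 in edgeR's quasi-likelihood test), with Cacna1b at -0.84 ± 0.11. Among fusion genes Syt2, the calcium sensor of fast hindbrain synapses, stood at -1.11 ± 0.18 and Doc2b at -1.08 ± 0.14. Among vesicle genes Syn3 stood at -0.98 ± 0.14, the rabphilin gene Rph3a at -0.82 ± 0.11 and Slc32a1, the vesicular GABA and glycine transporter, at -0.73 ± 0.10. Synj1, whose product helps vesicles to shed clathrin, stood at -0.59 ± 0.09. Slc17a6, the vesicular glutamate transporter VGLUT2, was at 0.06 and did not pass the test (adjusted p of 0.745). Napb, Rab3c, Amph and Cltb also lay between -0.03 and 0.04.

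No gene of the 54 was called for Lmx1b-/- against WT by edgeR's quasi-likelihood test, and their median log2 fold change was -0.02. Against Lmx1b+/-, 38 were higher in Lmx1b-/- and none lower, where 11.5% of all genes were called higher, with Syt2 at 1.33 ± 0.18, Doc2b at 1.01 ± 0.14 and Cacna1a at 0.92 ± 0.12. Of the 45 genes that are not members 31 were higher. The share called higher was 24.6% in the top quartile of mean level and 28.2% in that of exonic length. Of 12 general neuron markers 3 were higher in Lmx1b-/- than in Lmx1b+/- (Nefm, Nefh and Snhg11) and none was lower. Of the same markers, Stmn2, Uchl1, Tubb3 and Elavl4 rose and Rbfox3 and Snhg11 fell in the AMPK comparison. In Lmx1b+/- Nefl and Stmn2 rose, Nefh, Snhg11 and Rbfox3 fell and 7 did not pass the test.

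**Figure D5:**
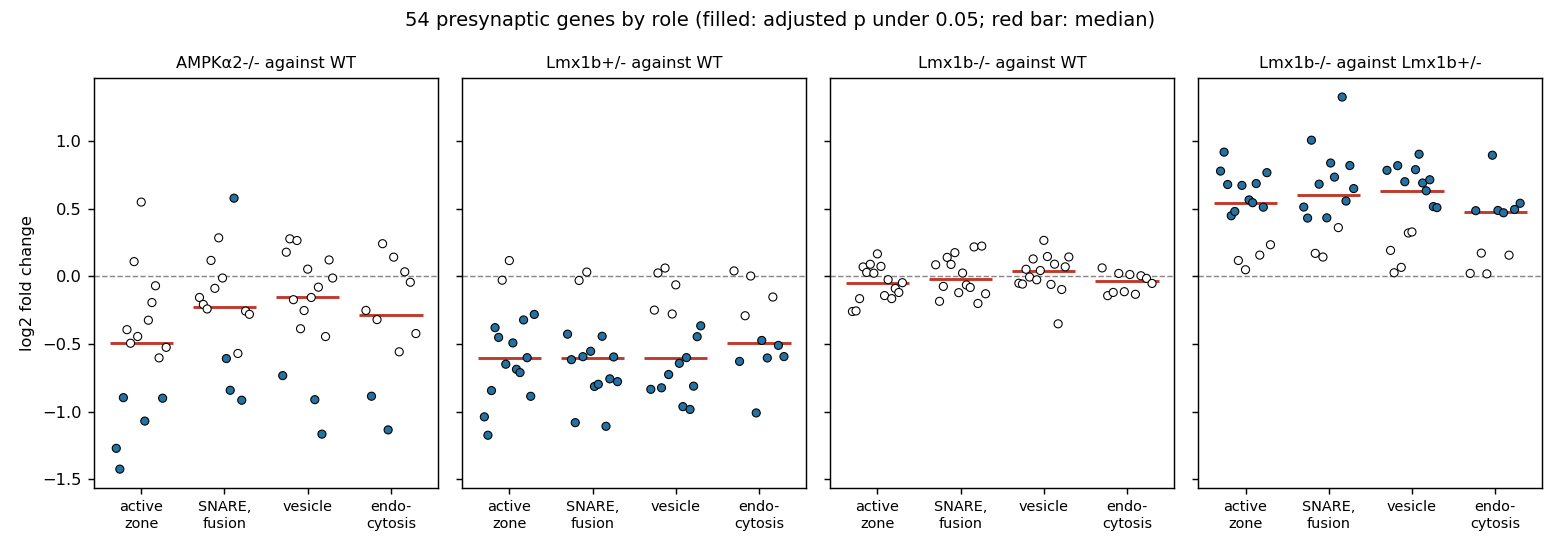
Log2 fold change (vertical axis) of 54 presynaptic genes by role in 4 comparisons, filled where the adjusted p was under 0.05, with the median of each role as a red bar. Medians lie between -0.49 and -0.16 for AMPKα2-/- against WT, between -0.61 and -0.49 for Lmx1b+/- against WT, within 0.05 of 0 for Lmx1b-/- against WT and between 0.48 and 0.63 for Lmx1b-/- against Lmx1b+/-.

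Genes with the pattern most like Bsn and Snap25 were found by Pearson r of log2 CPM over the 9 LMX1B libraries, which share their depth and composition. For Bsn these were Lmtk2 (0.99), Ank1 (0.99), Hdac4 (0.99), Ttbk1 (0.99) and Ncoa2 (0.99), with exonic lengths of 8114 to 15813 bases. For Snap25 they were Cmtm5 (0.97), Vmn1r85 (0.95), Napb (0.95), 2610002M06Rik (0.94) and Acer3 (0.94). Napb, which encodes a SNAP protein that helps to recycle SNARE complexes, was the only gene of the wider presynaptic list among them.

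Called markers of other cell types are counted by list, and their part in the results was not tested. In Lmx1b+/- against WT, 8 of 10 oligodendrocyte markers fell (summed level of 282 to 354 CPM against 402 to 469 CPM), as did 4 of 8 astrocyte markers, 4 of 9 tested cerebellar markers, 1 of 7 microglia markers and 1 of 8 meninges and vessel markers. In the same comparison 3 of 8 tested muscle markers, 1 of 8 choroid plexus markers, 2 of 9 progenitor markers, 4 of 10 hindbrain markers and 1 of 6 tested telencephalon markers rose. Of all genes 17.3% were called lower and 19.4% higher in Lmx1b+/- against WT, and several of these list counts were near those shares. In Lmx1b-/- against WT 1 cerebellar marker fell, and no other marker of these lists was called. Summed telencephalon markers were at 33.7 to 74.7 CPM in Lmx1b-/-, 35.1 to 48.4 CPM in Lmx1b+/- and 22.0 to 28.4 CPM in WT. In the AMPK comparison the 5 muscle markers tested fell, and their list summed to 844 CPM in AMPK WT 3 and to 5.95 to 10.9 CPM in the other 5 libraries. Choroid plexus markers summed to 37.4 to 133 CPM in AMPKα2-/- against 12.1 to 18.9 CPM in AMPK WT, with 2 of 4 tested called higher. Of the other lists 2 of 5 tested erythroid markers, 1 hindbrain, 1 meninges and vessel and 1 cerebellar marker rose, 1 cerebellar marker fell, and no oligodendrocyte, astrocyte, progenitor, microglia or telencephalon marker was called. In the AMPK comparison 5.17% of all genes were called lower and 3.77% higher. Hindbrain markers summed to 50.7 to 140 CPM in the AMPK libraries and to 106 to 341 CPM in the LMX1B libraries, and none was at 0 in every library.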

How the data were processed

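PolyA RNA from brainstem ventilatory center tissue was prepared with a directional kit and sequenced on an Illumina instrument. Reads were aligned by the authors with HISAT2, and GRCm39 is the build in the submitters' processing notes. Versions, the annotation, the counter, and the use of strand and of molecular indexes are not given in the sources used here. The deposited values are raw read counts per Ensembl gene and the RPKM that the authors derived from them, in 1 table of each kind per experiment. Symbols were matched to 51884 of 57180 identifiers, and exonic length was taken from the ratio of counts to RPKM.

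Samples were grouped by their titles and genotypes. Counts were filtered (filterByExpr), scaled by TMM and tested with the quasi-likelihood test of edgeR 4.0.16 in R 4.3.3, in 1 fit per experiment and 1 fit of all 15 libraries for the difference between knockout effects, with Benjamini-Hochberg adjustment over all genes tested. Standard errors were derived from the quasi-likelihood test, as the absolute log2 fold change divided by the square root of its F statistic. Intervals use these standard errors and cover 95%. Alternatives used DESeq2 1.42.0, limma 3.58.1 on log2(RPKM + 1) and log2(RPKM + 0.1), other scalings, filters and thresholds, a replicate block, removal of each library in turn, and lowess removal (span 0.3) of length trends. Removal of length and GC trends together was added after the data were seen. The scripts were tested on simulated data. The totals of 291212 and 335986 counts in 2 AMPK libraries limit precision there, where 3 counts equal 9.98 and 9.07 CPM.

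The members, 4 presynaptic role lists and 12 marker lists were chosen with earlier results of these data known. Named are the members, up to 6 called genes per direction within each role by smallest p, and the 5 genes most correlated with Bsn and with Snap25. Further presynaptic genes that did not pass the test (Slc17a6, Napb, Rab3c, Amph, Cltb) and the called neuron markers were named after their values were seen. Some genes of the role lists are counted but not reported by name here.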

Additional observations from a re-analysis of the deposited data

Results flagged for a closer look

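For 7 members the effects of the 2 Lmx1b genotypes against WT differed in a direct test, by edgeR's quasi-likelihood test over all genes. The log2 difference, Lmx1b-/- minus Lmx1b+/-, was 0.90 for Syn1, 0.90 for Dnm1, 0.78 for Bsn, 0.69 for Syn2, 0.69 for Rims1, 0.67 for Pclo and 0.65 for Vamp2, with adjusted p between 0.000139 and 0.00166. Libraries did not overlap for any of the 7, where 42.4% of all genes did not overlap. In this comparison 25.5% of all genes were called. Both effects share the WT libraries, and erythroid markers were highest in the Lmx1b+/- libraries, whose part in the difference was not tested.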

How the results depend on the processing

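The AMPK calls were the least stable. Of 4 members called, 2 remained when a change of at least 2-fold was also required, and 0 were called with limma on log2(RPKM + 1), with limma on log2(RPKM + 0.1), with length and GC trends removed (chosen after seeing the data) and with libraries of over 1000000 counts only; the cause was not tested. Leaving out 1 library gave 2 (without AMPK WT 3) to 5 calls (without AMPK WT 1). Over all genes 1555 calls became 680 with DESeq2, 0 with limma, 323 with length and GC trends removed, 901 with the length trend removed, 6 with the deep libraries only and 548 (without AMPK WT 3) to 2958 (without AMPK WT 1) with 1 library left out. For Lmx1b+/- against WT 8 calls became 2 with at least 2-fold and 7 to 8 without 1 library. Lmx1b-/- against WT gave 0 to 0 calls without 1 library, and its 4 calls over all genes became 34 with DESeq2, 329 with any count kept, 19 with library size only, 13 with the 6 libraries compared and 3 to 11 without 1 library. Lmx1b-/- against Lmx1b+/- gave 0 with at least 2-fold and 7 to 8 without 1 library, and 5544 calls over all genes became 3663 with the length trend removed and 3500 to 6054 without 1 library. The difference between knockout effects gave 2 member calls with library size only (Syn1, Dnm1) and 0 to 3 without 1 library, with 3 without AMPK WT 1 and 2 without AMPKα2-/- 2, and its 68 calls over all genes became 175 with library size only, 17 with the length trend removed, 12 with the deep libraries and 18 to 1104 without 1 library.

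Signs turned for values that did not pass the test. With length and GC trends removed, Syn2 stood at 0.12 and Vamp2 at 0.035 in the AMPK comparison, Snap25 at -0.021 for Lmx1b+/- against WT and Syn1 at 0.0058 for Lmx1b-/- against WT. With the length trend removed, Syn2 stood at 0.12 and Rims1 at 0.037 in the AMPK comparison, Rims1 at 0.0021 for Lmx1b-/- against WT, Snap25 at -0.036 for Lmx1b-/- against Lmx1b+/-, and Rims1 at -0.044 and Syn2 at -0.0096 for the difference between knockout effects. Snap25 stood at -0.207 and -0.213 with limma on log2(RPKM + 1) and log2(RPKM + 0.1) and at -0.205 with library size only for Lmx1b+/- against WT. With library size only Pclo stood at -0.0074 for Lmx1b-/- against WT and Snap25 at 0.0076 for the difference between knockout effects, and Pclo at -0.0044 with the 6 libraries compared. Leaving out 1 library gave ranges that crossed 0, of -0.166 to 0.0026 for Syn2 in the AMPK comparison, -0.129 to 0.121 for Snap25 in Lmx1b+/- against WT, -0.062 to 0.174 for Pclo, -0.057 to 0.0074 for Rims1, -0.186 to 0.0051 for Syn1 and -0.158 to 0.027 for Syt1 in Lmx1b-/- against WT, and -0.039 to 0.193 for Rims1 in the difference between knockout effects.

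Scaling by library size only moved the median of all genes to -0.18 (AMPK), -0.27 (Lmx1b+/- against WT), 0.22 (Lmx1b-/- against Lmx1b+/-) and 0.19 (difference between knockout effects). The share of lower calls moved from 900 of 1555 to 1655 of 1928, from 3752 of 7977 to 5816 of 7870 and from 3044 of 5544 to 1296 of 5033 in the first 3. With limma on log2(RPKM + 1) lower calls were 5097 of 7273 for Lmx1b+/- against WT and 1390 of 4334 for Lmx1b-/- against Lmx1b+/-. Replicate numbers were not taken to pair the samples. Deviations of same-numbered libraries correlated at -0.08 to 0.01 between the AMPK groups, at 0.12 to 0.25 between Lmx1b WT and Lmx1b-/-, at -0.20 to -0.02 between Lmx1b WT and Lmx1b+/- and at -0.23 to -0.21 between Lmx1b+/- and Lmx1b-/-. Differently numbered libraries correlated, in the same order, at -0.06 to 0.09, -0.17 to 0.02, -0.17 to 0.19 and -0.11 to 0.32. Same-numbered pairs were thus the higher ones only between Lmx1b WT and Lmx1b-/-. These values do not decide whether the samples were paired. With the replicate number as a block 4, 8, 0 and 7 members were called for AMPKα2-/- against WT, Lmx1b+/- against WT, Lmx1b-/- against WT and Lmx1b-/- against Lmx1b+/-, and 1350, 7243, 5 and 4720 genes in all. For the 2 AMPK libraries under 1000000 counts, depth limits what can be seen.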
